A study of Mus musculus with 1279 samples.

Results

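The genes described here encode the dystrophin and sarcoglycan complex. The 9 members, fixed by name, were Sgca, Sgce, Sgcb, Sgcd, Sspn, Dag1, Dmd, Dtna and Sntb1, out of 46517 genes in a count table of mouse heart cells, and their rows were followed over 8 cell clusters and 4 strains. Each of the 1279 samples was 1 cell, sequenced by Smart-seq2, a plate method that reads whole transcripts and carries no molecular identifiers. Hearts came from male mice of 10 to 20 weeks on a C57Bl6/J background. C57BL6 (581 cells) carried no reporter and was sorted with antibodies against the PDGF receptors, and PdgfrbGFP (364 cells), Cspg4dsRED (26 fibroblasts and 33, 75 and 29 cells of clusters 6, 7 and 8) and Acta2GFP (120 fibroblasts and 51 mural cells) were transgenic lines whose fluorescent protein follows regulatory sequences of Pdgfrb, Cspg4 or Acta2. In all strains cells with the endothelial antigen CD31 were gated out, and Acta2GFP tissue was also digested with elastase, so strain, sort, digestion and plate cannot be told apart.

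The complex links the actin cytoskeleton to the basement membrane. Dystrophin (Dmd) binds actin inside the cell and beta-dystroglycan at the membrane, dystroglycan (Dag1) binds laminin outside, the sarcoglycans and sarcospan (Sspn) form a membrane subcomplex beside it, and dystrobrevin (Dtna) and syntrophins (Sntb1) bind to dystrophin and recruit signalling proteins. It is best known from striated muscle, where loss of its members causes muscular dystrophies and cardiomyopathy. Alpha-sarcoglycan (Sgca) is the form of striated muscle, epsilon-sarcoglycan (Sgce) is its broadly expressed relative, and smooth muscle is known to carry sarcoglycan complexes as well.

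Clusters 1 to 5 (926 cells) were fibroblasts and clusters 6 to 8 (353 cells) were taken as mural cells, the contractile cells and pericytes of vessel walls. The summed level of 5 fibroblast markers averaged between 11878 and 14070 counts per 1e6 counts of the sum (CPM) in clusters 1 to 5 and 546 in cluster 7. Smooth muscle markers (Acta2, Myh11, Tagln, Cnn1) summed to 12725 ± 2651 CPM in cluster 7 and 11450 ± 1759 in cluster 6 (SD over 3 strains each), and pericyte markers (Kcnj8, Abcc9, Higd1b, Rgs5) to 14466 ± 6499 in cluster 8 (4 strains). A set of 10 cardiac muscle genes was highest in cluster 7 (1588 ± 371 CPM), where Pln gave 1141 ± 117.3 CPM, and none of the 10 was at 0 in any cluster. Endothelial, immune and Schwann cell markers stayed at mean sums of at most 118.05, 61.9 and 3.90 CPM. Totals per cell ran from 46268 to 1302397 counts with a median of 274504. The labels name no animal, so counts were summed per strain and cluster, with 27 sums of 3 cells or more, and the strain was the replicate. The authors drew the clusters on these very counts, so a test between clusters is not independent of how they were drawn.

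Some libraries stood apart. The 3 C57BL6 cells of cluster 6 carried 12491 CPM of fibroblast markers, and C57BL6 had a single cell in cluster 7. Among the 15 Acta2GFP cells of cluster 8 the median of Kcnj8, which encodes a potassium channel subunit of pericytes, was 9.82 CPM against medians of 4584 to 6738 in the other strains, while their median of Acta2 was 2240 CPM. The PdgfrbGFP sum of cluster 7 rested on 9 cells, and 97.9% to 98.6% of its reads of Sgce, Sgcb, Dag1 and Sspn came from 1 cell per gene.

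**Figure D1:**
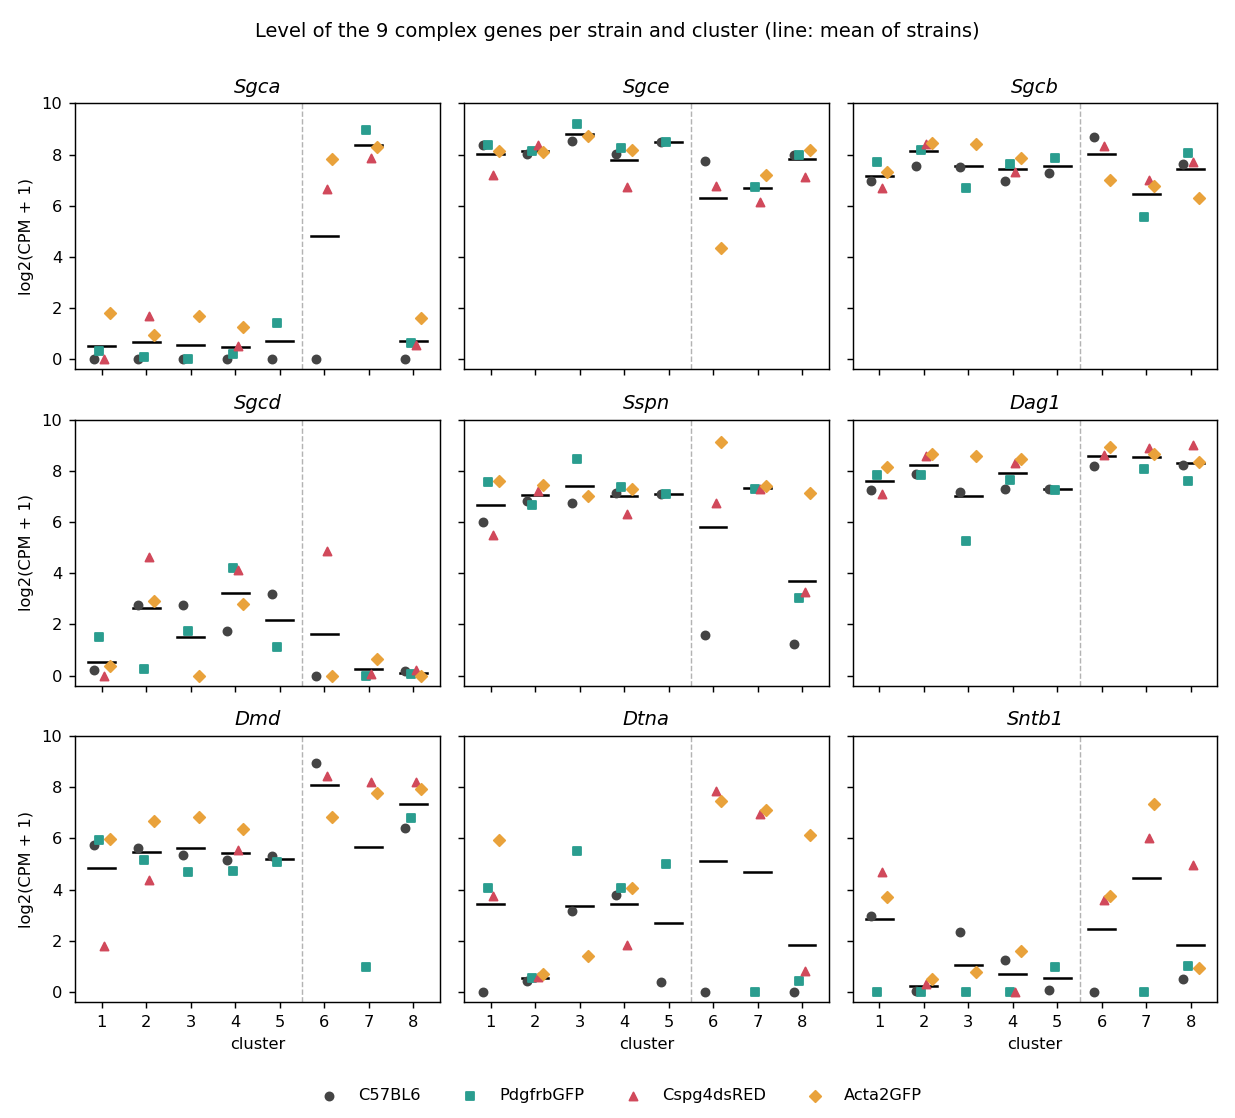
Level of each of the 9 genes in the 27 sums of 1 strain in 1 cluster, as log2(CPM + 1) against cluster number, with strains by colour and marker, the mean of the plotted values as a line and a dashed line between fibroblast and mural clusters. Sgca is high in clusters 6 and 7 of the reporter strains and at or near 0 elsewhere, Sgce, Sgcb and Dag1 are present in each cluster, and Sspn is low in cluster 8 of all strains but Acta2GFP.

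The sarcoglycan with the sharpest pattern was Sgca (chr11:94962791-94976327 in GRCm38, minus strand). In cluster 7 its level was 501 CPM in PdgfrbGFP (3 of 9 cells), 234.3 in Cspg4dsRED and 311 in Acta2GFP. In cluster 6 it was 98.7 CPM in Cspg4dsRED, 228.9 in Acta2GFP and 0 in the 3 C57BL6 cells. Every other sum of 1 strain in 1 cluster held 2.45 CPM or less, so the values of cluster 7 lay above all of them without overlap. In cluster 7, 65 cells had a count (55.1%, 95% Wilson interval 46.1% to 63.8%), and in cluster 6, 23 of 39 cells (58.97%, 43.4% to 72.9%). By strain the cluster 7 share was 33.3% in PdgfrbGFP, 46.7% in Cspg4dsRED and 81.8% in Acta2GFP, a wider range than the pooled interval. Cluster 8 had 18 cells with a count (9.18%), and fibroblast clusters between 1.71% and 22.9%. At an equal depth of 50000 counts per cell, without the 2 cells below it, the shares were 49.6% in cluster 7, 48.7% in cluster 6 and 2.56% in cluster 8, and 1.29% to 4.29% in fibroblast clusters. The median depth was 243989 counts in cluster 7, 167874 in cluster 8 and 258505 to 349816 in clusters 1 to 5. Intervals and limits cover counting error only.

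Against clusters 1 to 5, Sgca rose in cluster 7 by a log2 fold change of 8.49 ± 0.77 (SE, 3 strains, adjusted p = 0.000566, edgeR quasi-likelihood F test with Benjamini-Hochberg adjustment over 13862 genes), with means of 348.9 ± 137.5 and 1.09 ± 0.41 CPM. It was higher in 3 of 3 strains, and adjusted p ran from 2.04e-17 to 0.00895 over 9 alternative settings. Against cluster 7, Sgca fell in cluster 8 by 8.51 ± 1.10 on the log2 scale (adjusted p = 0.0124), from 348.9 ± 137.5 to 1.03 ± 0.92 CPM, and was lower in 3 of 3 strains. Without PdgfrbGFP this fall was 7.66 with an adjusted p of 0.183. Cluster 8 was not separated from clusters 1 to 5 (log2 fold change 0.09 ± 1.49, adjusted p = 0.988).

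No read of Sgca was counted in any C57BL6 cell. Its 544 fibroblasts held 0 of 165964970 counts, which allows up to 0.0181 CPM, and its 37 mural cells, 33 of them in cluster 8, held 0 of 8634092 (up to 0.347 CPM). The only C57BL6 cell of cluster 7, with 2025 CPM of Myh11, had 0 counts of Sgca, beside 700 CPM of Dtna and 380 of Sspn. In the reporter strains, the few Sgca counts in fibroblasts lay in 11 wells in PdgfrbGFP, 3 of 26 in Cspg4dsRED and 43 of 120 in Acta2GFP, with 51, 11 and 74 counts in all. A single well held 41 of the 51 and another 9 of the 11, while no Acta2GFP well held more than 9. On the Acta2GFP plate the count in a fibroblast well followed the Sgca counts of mural cells in the same row and column (Spearman's rho 0.52 over 120 wells that share 1 plate, given as a description). On the PdgfrbGFP and Cspg4dsRED plates the same measure gave rho of 0.30 and 0.20, the latter over 26 wells. The part of the plate in these low counts was not tested.

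For fibroblasts as a whole against mural cells, Sgca averaged 0.818 ± 0.642 against 100 ± 92.1 CPM and was lower in fibroblasts in 3 of the 4 strains, both being 0 in C57BL6. This difference missed the threshold (log2 fold change -6.99 ± 1.95, adjusted p = 0.0675). Its adjusted p became 0.00767 by DESeq2, 0.00676 when strain was a block and 0.00503 when C57BL6 was left out. The mural sums differ in makeup, since clusters 6 and 7 together held 3 and 1 of the 37 mural cells of C57BL6, 0 and 9 of PdgfrbGFP, 33 and 75 of Cspg4dsRED, and 3 and 33 of the 51 of Acta2GFP.

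The 250 bases before the annotated start of Sgca and of Sgcb are shown because the first gene was high in 2 clusters and the second, a partner in the same subcomplex, was found in all 8. Capitals mark E-boxes (CANNTG), the sites bound by basic helix-loop-helix factors, and CArG boxes, the sites bound by serum response factor, both searched on both strands. The sequences are from RefSeq on GRCm38.p6, at chr11:94976328-94976577 and chr5:73647738-73647987, both on the minus strand.
Sgca: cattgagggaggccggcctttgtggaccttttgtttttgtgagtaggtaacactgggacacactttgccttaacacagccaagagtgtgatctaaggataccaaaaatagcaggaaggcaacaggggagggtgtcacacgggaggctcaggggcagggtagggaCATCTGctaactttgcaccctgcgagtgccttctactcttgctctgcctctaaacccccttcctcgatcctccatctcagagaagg
Sgcb: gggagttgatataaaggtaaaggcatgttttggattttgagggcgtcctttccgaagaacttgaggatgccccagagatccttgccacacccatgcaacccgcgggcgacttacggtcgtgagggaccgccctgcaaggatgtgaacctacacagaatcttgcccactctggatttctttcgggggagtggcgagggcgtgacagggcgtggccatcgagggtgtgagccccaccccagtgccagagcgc
The Sgca window held 1 E-box, that of Sgcb 0, and neither held a CArG box. An E-box was found in 66.2% of the 32851 RefSeq windows of this length and a CArG box in 1.47%. The Sgca window had 52.8% G and C and that of Sgcb 58.4%, against a median of 52.4% over all windows. These matches describe letters only.

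Sgce (chr6:4674350-4747207, minus strand) was broadly expressed. Its mean level was highest in cluster 3 (460 ± 114.8 CPM, 3 strains), followed by cluster 5 (356, 2 strains), and lowest in cluster 7 (107.2 ± 38.5 CPM), where the strains gave 105.5, 69.6 and 146.5 CPM for PdgfrbGFP, Cspg4dsRED and Acta2GFP. Cluster 3 did not overlap with cluster 5, nor cluster 5 with cluster 2, while the neighbours from cluster 2 downwards overlapped in this order: clusters 2, 1, 4, 8, 6 and 7. Cluster 7 lay below clusters 1 to 5 without overlap (280 ± 58.5 CPM in the same 3 strains), but the difference did not pass the test (log2 fold change -1.27 ± 0.53, adjusted p = 0.256). A difference among clusters 2 to 5 did not pass either (F = 3.46, adjusted p = 0.597).

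Of the cells of cluster 7, 36 had counts of both Sgca and Sgce, 29 of Sgca alone, 19 of Sgce alone and 34 of neither. In Acta2GFP 23 of 33 cells had both, in Cspg4dsRED 13 of 75 and in PdgfrbGFP 0 of 9. A cell counted here from 1 read upwards, and on the Acta2GFP plate 43 of 120 fibroblasts also had a count of Sgca, so these numbers do not separate low counts of the plate from expression of both genes in 1 cell. Over the 27 sums, Sgca and Sgce levels were negatively correlated (Pearson's r -0.71 of log2(CPM + 1), a description over sums that share plates and strains). The genes whose pattern over the sums was most like Sgca were Grip2 (r = 0.96), Rbm24 (0.90) and Dgkg (0.88). For Sgce these were Pcolce (0.85), Mxra7 (0.82) and Cebpd (0.81), chosen as the 3 highest of 10290 genes with a mean of 10 CPM or more.

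**Figure D2:**
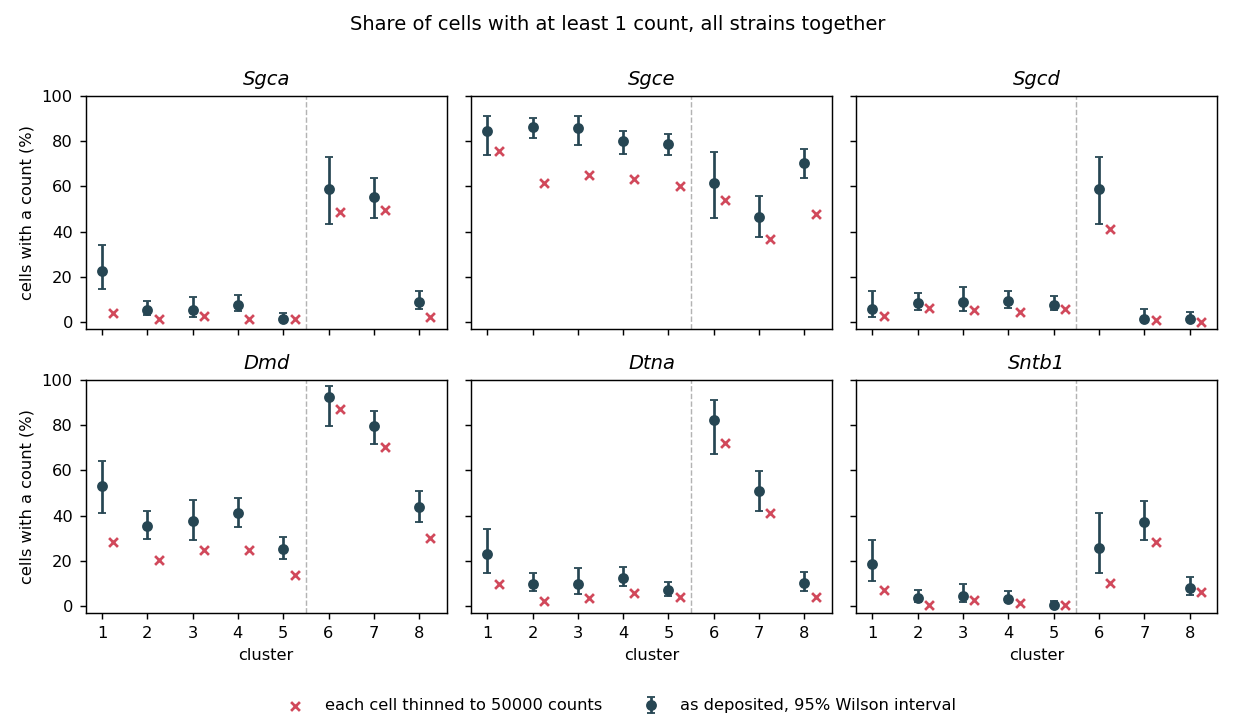
Percentage of cells with at least 1 count of 6 genes, all strains together, against cluster number. Points with 95% Wilson intervals are as deposited and crosses show the share at 50000 counts per cell. Sgca has a count in 55.1% of cluster 7 and 58.97% of cluster 6 cells, and Sgcd in 58.97% of cluster 6 and 1.69% of cluster 7 cells.

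Sgcb (chr5:73632749-73647790, minus strand), the beta-sarcoglycan on which assembly of the subcomplex depends, was present in 55.4% to 84.6% of cells of each cluster. Mean levels ran from 289.4 ± 71.99 CPM in cluster 2 (4 strains) to 93.4 ± 41.96 in cluster 7 (3 strains), and every neighbour in the order overlapped with the next. In cluster 7 the strains gave 46.1 CPM in PdgfrbGFP, 126.2 in Cspg4dsRED and 107.97 in Acta2GFP. All 3 were below the fibroblasts of the same strains, and the groups did not overlap, with 93.4 ± 41.96 against 236.3 ± 33.1 CPM (log2 fold change -1.23 ± 0.57, adjusted p = 0.316). Its nearest patterns were those of E230016M11Rik (r = 0.74), Stx4a (0.73) and Gpr19 (0.72).

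The delta-sarcoglycan gene Sgcd (chr11:46896253-47988969, minus strand) was low throughout, at 28.5 CPM or less in every sum, and 1986 reads were counted over all cells. In clusters 1 to 5 together it was at 5.32 CPM in C57BL6, 5.45 in PdgfrbGFP, 17.6 in Cspg4dsRED, and for Acta2GFP 4.19. In PdgfrbGFP 85.6% of these reads came from 1 cell. Cluster 8 held 3 reads in all, with at most 0.150 CPM in any strain, so these groups did not overlap. Sgcd fell in cluster 8 against clusters 1 to 5 by a log2 fold change of 6.48 ± 1.299 (adjusted p = 0.0143, 4 of 4 strains). With so few reads the fitted value depends on the prior count, and the ratio of summed reads was 73.4 with a 95% counting interval of 25.1 to 356. The adjusted p was 0.0507 with strain as a block, and between 0.0357 and 0.0825 when 1 strain was left out, passing only without Acta2GFP. Cluster 7 held 8 reads, a ratio of 22.5 (11.4 to 52.3), and its test against clusters 1 to 5 gave an adjusted p of 0.136.

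In cluster 6, Sgcd was found in many cells. Of 39, 23 had a count (58.97%, 43.4% to 72.9%), against 2 cells in cluster 7 (1.69%) and 3 in cluster 8 (1.53%). At equal depth the shares were 41.03%, 0.855% and 0%. The level was 28.5 CPM in Cspg4dsRED and 0 in the 3 cells each of C57BL6 and Acta2GFP, so the pattern rested on 1 strain and was not tested between strains. Among fibroblasts, cluster 1 had 0.578 ± 0.862 CPM and clusters 2 to 5 8.95 ± 6.77 (4 strains). These groups did not overlap, yet the log2 fold change of -3.66 ± 1.32 did not pass (adjusted p = 0.340). Without PdgfrbGFP, whose cluster 1 reads came from 1 cell, it was -5.58, and without Cspg4dsRED -2.75, neither past the threshold. Patterns most like Sgcd were Camkk1 (r = 0.75), Itgb8 (0.75) and Fgf7 (0.72).

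Sarcospan (Sspn, chr6:145931641-145965223, plus strand), a small membrane protein that joins the sarcoglycans to dystroglycan, was low in most of cluster 8. In cluster 7 it was at 156.02 CPM in PdgfrbGFP, where 98.4% of the reads came from 1 of 9 cells, 156.5 in Cspg4dsRED and 169.4 in Acta2GFP. In cluster 8 the level was 1.36 CPM in C57BL6, 7.23 in PdgfrbGFP, 8.70 in Cspg4dsRED, and for Acta2GFP 141.3. In the Acta2GFP sum, 97.99% of the reads came from 1 of 15 cells, and the median cell had 2.94 CPM. Fibroblasts of clusters 1 to 5 had 136.6 ± 25.5 CPM. Cluster 8 against these gave a log2 fold change of -1.60 ± 1.11 (adjusted p = 0.572), and without Acta2GFP of -4.37 (adjusted p = 0.0134). Against cluster 7, cluster 8 was lower in 3 of 3 strains without overlap, with a log2 fold change of -1.64 ± 1.16 (adjusted p = 0.951), which became -4.48 without Acta2GFP (adjusted p = 0.607). Of its 4996 exonic bases, 69 are shared with the antisense gene Sspnos, and the strand setting of the counting was not stated. Ak1 (r = 0.79) and Fgfr1 (0.77) were among the patterns closest to Sspn.

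Dag1 (chr9:108204634-108263958, minus strand), which encodes both alpha- and beta-dystroglycan, was found in every cluster. Its mean was 391 ± 97.5 CPM in cluster 6, 380 ± 100.7 in cluster 7 and 331 ± 133.01 in cluster 8, and between 154.06 (cluster 5, 2 strains) and 312 ± 92.2 CPM (cluster 2) in fibroblasts. Each neighbour in this order overlapped. All 4 strains had a higher level in mural cells (331 ± 111.2 CPM) than in fibroblasts (257.4 ± 90.8), but the difference did not pass the test (log2 fold change of fibroblasts against mural cells -0.38 ± 0.32, adjusted p = 0.657). With strain as a block, which pairs the sums of a strain, Dag1 was not called either. At least 1 count was found in 90.7% of cluster 7 and 63.3% of cluster 8 cells, where the median depths were 243989 and 167874. Shc1 (r = 0.85), Ap3m1 (0.83) and Lpp (0.83) had the most similar patterns.

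Dystrophin was lower in fibroblasts than in mural cells. Dmd (chrX:82948870-85206141, plus strand) in fibroblasts was at 40.4 CPM in C57BL6, 33.8 in PdgfrbGFP, 28.1 in Cspg4dsRED, and for Acta2GFP 87.1. In mural cells of the same strains it was at 132.04, 98.5, 310 and 217.3 CPM. All mural values lay above all fibroblast values, with means of 189.5 ± 94.7 and 47.3 ± 26.9 CPM. Dmd was lower in fibroblasts by a log2 fold change of -2.01 ± 0.46 (adjusted p = 0.0285, 4 of 4 strains). Of 15117 genes tested in this comparison 5.93% were called, and of the 9 members 1, Dmd. DESeq2 called Dmd (adjusted p = 0.000337), Sgca (0.00767) and Sntb1 (0.00792), and the block by strain called Sgca and not Dmd. DESeq2 also called a larger share of all genes than edgeR in this comparison, given in the last section. The call of Dmd was lost under a block by strain (adjusted p = 0.0531), without the C57BL6 cells of cluster 6 (0.0536), without clusters 1 and 6 (0.0542), and without any of C57BL6 (0.110), PdgfrbGFP (0.0743) and Cspg4dsRED (0.110), where the log2 fold change stayed between -2.12 and -1.55.

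By cluster, Dmd was at 83.1 CPM in C57BL6, 109.2 in PdgfrbGFP, 292.5 in Cspg4dsRED, and for Acta2GFP 241.96 in cluster 8. These were above the fibroblasts of the same strain in 4 of 4 cases, though the lowest of them lay under the highest fibroblast value. Against clusters 1 to 5, Dmd rose in cluster 8 by 2.06 ± 0.52 on the log2 scale (adjusted p = 0.0377). Blocking by strain gave an adjusted p of 0.0624, and it ran from 0.0390 to 0.171 when 1 strain was left out, passing only without Acta2GFP. In cluster 7 the strains were far apart, with 0.981 CPM in PdgfrbGFP (9 cells), 295 in Cspg4dsRED and 220 in Acta2GFP, and the difference from clusters 1 to 5 did not pass (log2 fold change 1.89 ± 1.28, adjusted p = 0.572, and 2.28 with an adjusted p of 0.0885 without PdgfrbGFP). Cluster 6 had 499 CPM in C57BL6, 346 in Cspg4dsRED and 111.7 in Acta2GFP. A count of Dmd was found in 92.3% of cells in cluster 6, 79.7% in cluster 7 and 43.9% in cluster 8, and in 25.3% to 52.9% in fibroblast clusters. At equal depth the shares were 87.2%, 70.1% and 30.3%, and 13.7% to 28.6%. All of these pool strains that differ. In Acta2GFP a count was found in 71.7% of fibroblasts, 81.8% of cluster 7 and 73.3% of cluster 8 cells. Cspg4dsRED gave 53.8%, 85.3% and 82.8%, and PdgfrbGFP 30.5%, 22.2% and 32.8%. C57BL6 gave 28.5% in fibroblasts and 36.4% in cluster 8. The nearest patterns were 2310022B05Rik (r = 0.83), Tjp1 (0.82) and Ndufv3 (0.82). Counts per gene do not separate the long dystrophin from the short forms that start inside the gene.

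Dmd has 2 starts in the RefSeq table, and the 250 bases before each are shown because counts per gene add up transcripts from both. Capitals mark E-boxes and the CArG box as above. The first is at chrX:82948620-82948869 and the second at chrX:85048045-85048294, both on the plus strand of GRCm38.p6.
Dmd first start: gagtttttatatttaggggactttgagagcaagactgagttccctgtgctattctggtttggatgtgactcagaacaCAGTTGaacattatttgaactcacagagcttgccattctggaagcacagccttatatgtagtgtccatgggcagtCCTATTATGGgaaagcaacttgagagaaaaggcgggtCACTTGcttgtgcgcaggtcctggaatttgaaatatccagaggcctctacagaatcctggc
Dmd second start: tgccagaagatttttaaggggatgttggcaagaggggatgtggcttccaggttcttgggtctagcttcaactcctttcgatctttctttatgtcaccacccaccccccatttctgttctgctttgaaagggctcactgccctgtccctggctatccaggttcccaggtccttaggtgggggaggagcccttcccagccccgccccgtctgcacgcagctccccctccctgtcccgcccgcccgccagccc
The first window held 2 E-boxes and 1 CArG box, the latter at position -98 from the start. The second held neither. It held 3 copies of GGGCGG or its complement, the letters of an Sp1 box, which were found in 32.7% of all windows. G and C made up 45.2% of the first window. Which of these starts was used cannot be read from counts per gene.

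Dtna, which encodes alpha-dystrobrevin, was high in clusters 6 and 7 of 2 strains. Its level in cluster 7 was 122.9 CPM in Cspg4dsRED and 138.7 in Acta2GFP but 0 in PdgfrbGFP. Cluster 6 gave 228.4 CPM in Cspg4dsRED, 173.8 in Acta2GFP and 0 in the C57BL6 cells. In cluster 8 it was at 0.750 CPM or less in 3 strains and at 69.6 in Acta2GFP, where 93.1% of reads came from 1 cell. By the mean over strains cluster 2 was the lowest of all, at 0.477 ± 0.105 CPM in 4 strains, and did not overlap with cluster 4 (11.7 ± 6.27 CPM), its neighbour in the order. Cluster 8 ranked above cluster 2 through the Acta2GFP sum, its other 3 strains running from 0 to 0.750 CPM. Counts were present in 82.1% of cells in cluster 6, 50.8% in cluster 7 and 10.2% in cluster 8. Cluster 7 against clusters 1 to 5 gave 2.75 ± 1.67 on the log2 scale (adjusted p = 0.498, and 3.74 with an adjusted p of 0.0953 without PdgfrbGFP), and fibroblasts against mural cells -2.53 ± 1.28 (adjusted p = 0.373), neither past the threshold. Mtss1 (r = 0.80), Enah (0.74) and Thsd4 (0.72) were its nearest patterns.

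Sntb1 (chr15:55636388-55906949, minus strand) encodes beta-1-syntrophin, an adaptor that brings channels and signalling enzymes to dystrophin. In cluster 7 it was at 160.5 CPM in Acta2GFP, 62.8 in Cspg4dsRED and 0 in PdgfrbGFP. Cluster 8 had 29.999 CPM in Cspg4dsRED and 1.02 or less in the other strains, and fibroblasts of clusters 1 to 5 had 1.77 ± 1.32 CPM. Within fibroblasts it was highest in cluster 1, with 6.76 CPM in C57BL6, all from 1 cell, 0 in PdgfrbGFP, 24.7 in Cspg4dsRED (20 reads in 3 cells, 90% of them from 1), and for Acta2GFP 11.98, against 0.669 ± 0.489 CPM in clusters 2 to 5 (log2 fold change 3.91 ± 1.60, adjusted p = 0.456). In cluster 7 against clusters 1 to 5 the log2 fold change was 5.37 ± 1.95 (adjusted p = 0.165), and without PdgfrbGFP 5.46 (adjusted p = 0.0209). Ralgapa2 (r = 0.78), Inf2 (0.78) and Speg (0.78) shared its pattern most closely.

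**Figure D3:**
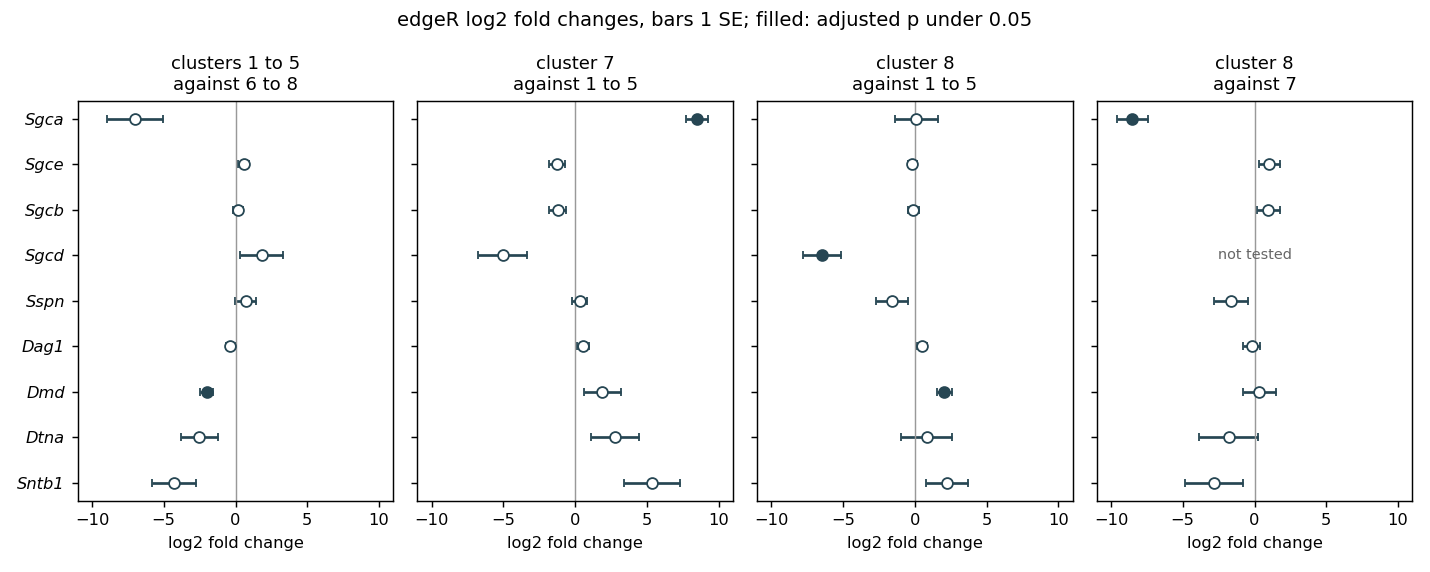
log2 fold change of the 9 genes in 4 comparisons between sums of strains, with bars of 1 SE and filled points where the adjusted p of edgeR was under 0.05. Sgca is filled in cluster 7 against clusters 1 to 5 (8.49) and in cluster 8 against cluster 7 (-8.51), Dmd in fibroblasts against mural cells (-2.01) and in cluster 8 against clusters 1 to 5 (2.06), and Sgcd in the latter (-6.48). Sgcd did not pass the filter on low counts in cluster 8 against cluster 7.

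The calls stand against these backgrounds. In cluster 7 against clusters 1 to 5, 4.5% of 13862 genes were called, and 1 of 9 members, Sgca. DESeq2 also called Sgcd (adjusted p = 0.00838) and Sntb1 (0.00114) there. In every comparison DESeq2 called a larger share of all genes than edgeR, given in the last section. In cluster 8 against clusters 1 to 5, 7.43% of 13692 genes were called, and 2 of 9 members, Dmd and Sgcd. Both comparisons share their fibroblast sums with fibroblasts against mural cells, so the 3 are not independent. For cluster 8 against cluster 7, 0.194% of 11867 genes were called, 10 higher and 13 lower, and 1 of the 8 members tested, Sgca. Size factors of the RLE method gave 12 higher and 33 lower there, and blocking by strain 24 and 58. The block also moved the number of genes called from 1018 to 540 in cluster 8 against clusters 1 to 5 and from 1.33% to 0.742% of genes tested in cluster 1 against clusters 2 to 5. Between TMM and RLE the median log2 fold change of all genes moved from 0.18 to 0.04 in cluster 8 against cluster 7 and from -0.19 to 0.10 in cluster 7 against clusters 1 to 5, a shift that small fold changes in both have to be read against.

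Among fibroblasts no member passed the edgeR test. For cluster 1 against clusters 2 to 5, 1.33% of 13201 genes were called and 0 of the 8 members tested, 2 of which (Sgcd and Sntb1) had an unadjusted p under 0.05. Sgca did not pass the filter there. Among clusters 2 to 5, 0.301% of 16629 genes were called and 0 of 9 members, with Sgce and Dtna at an unadjusted p under 0.05. DESeq2 called Dtna among clusters 2 to 5 (adjusted p = 0.0374) and no member in cluster 1 against clusters 2 to 5. A median of 4 members had a count in a cell in clusters 1, 2 and 4, 3 in clusters 3, 5 and 8, 5 in cluster 7 and 7 in cluster 6. At equal depth the medians were 2 or 3 in fibroblasts, 2 in cluster 8, 4 in cluster 7 and 5 in cluster 6.

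Cells were also screened for counts of the 10 cardiac muscle genes other than Pln, which was left out of this screen. Among cells without such a count, Sgca had a count in 3 of 8 Cspg4dsRED and 0 of 3 PdgfrbGFP cells of cluster 7. In cluster 6 it had one in 3 of 5 Cspg4dsRED cells and 0 of 1 C57BL6 cell. Acta2GFP had no such cell in either cluster. Zeta-sarcoglycan (Sgcz) had no count in any cell. In cluster 6, 0 of 39 cells sets the limit (3 cells) at 7.69% for the share of cells with a detected read.

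Utrophin (Utrn), the autosomal relative of dystrophin, was at 452 CPM in Cspg4dsRED and 386 in Acta2GFP but 4.91 in PdgfrbGFP in cluster 7. Over fibroblasts and mural cells it averaged 59.4 ± 33.2 and 189.3 ± 140.04 CPM (log2 fold change -1.69 ± 0.59, adjusted p = 0.152, and 0.0436 with strain as a block). Beta-2-syntrophin (Sntb2) fell in cluster 7 to 3.23 ± 1.06 CPM from 137.6 ± 77.1 in clusters 1 to 5, a log2 fold change of -5.25 ± 0.96 (adjusted p = 0.0120, 3 of 3 strains), and the adjusted p was 0.0565 with strain as a block. Sntb1 had its highest levels in cluster 7 of 2 of these strains. Beta-dystrobrevin (Dtnb) was at 23.2 ± 22.5 CPM in cluster 7 and did not pass in any of the 6 comparisons by edgeR. In cluster 8 it was at 2.12 ± 0.643 CPM against 10.2 ± 1.92 in clusters 1 to 5, lower in 4 of 4 strains without overlap (log2 fold change -2.15 ± 0.89, adjusted p = 0.238), and DESeq2 called it there.

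**Figure D4:**
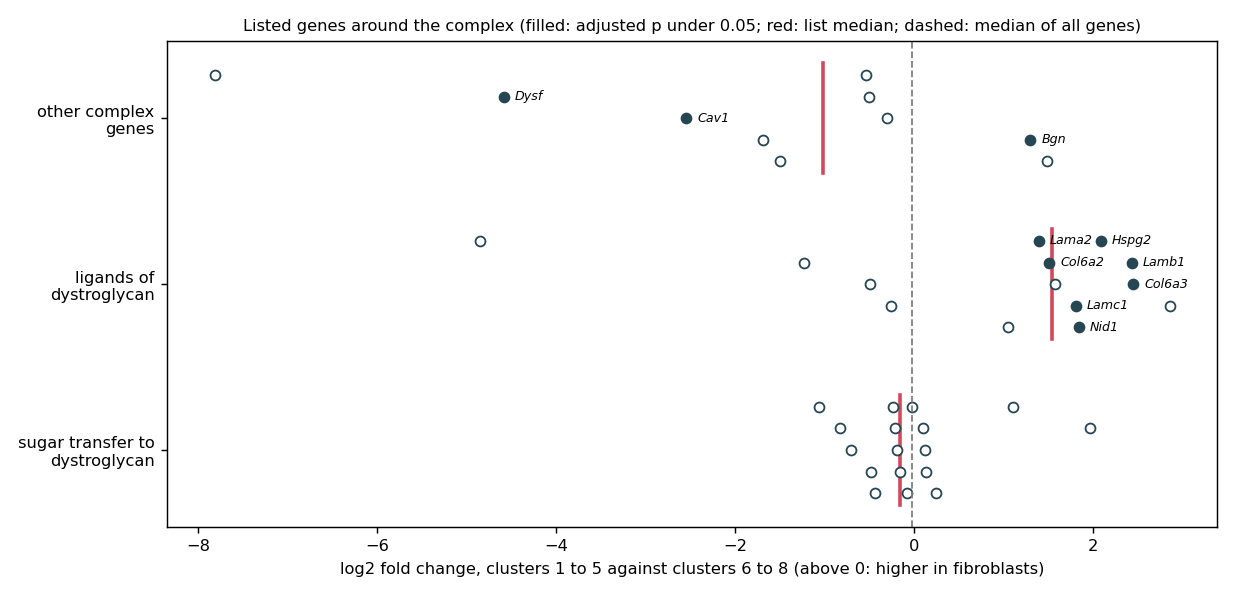
log2 fold change in fibroblasts of clusters 1 to 5 against mural cells of clusters 6 to 8 for 3 lists of genes around the complex, with filled and named points where the adjusted p of edgeR was under 0.05, list medians in red and the median of all genes dashed. The ligand list lies to the right, with a median of 1.54 and 7 filled points, and the sugar transfer list around 0 with none filled.

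The list of dystroglycan ligands also holds laminin chains without a known binding site for it, collagen IV and VI chains and nidogen, partners of the ligands in the basement membrane or around it. Of the 14 measured genes of this list of 15, 7 were higher in fibroblasts than in mural cells and 0 lower, with a median log2 fold change of 1.54 beside -0.02 for all genes tested, 5.93% of which were called. Besides the 5 below, Lama2 and Col6a2 were called, so of the genes of this list known to bind dystroglycan directly Lama2 and Hspg2 passed. Of the 7 called, the 5 with the largest change were Col6a3, a collagen VI chain (2.45 ± 0.31, adjusted p = 0.00154), the laminin chain Lamb1 (2.44 ± 0.30, adjusted p = 0.00139), perlecan, Hspg2 (2.09 ± 0.39, adjusted p = 0.0114), nidogen, Nid1 (1.84 ± 0.29, adjusted p = 0.00476), and the laminin chain Lamc1 (1.81 ± 0.25, adjusted p = 0.00248), each higher in 4 of 4 strains. Slit2, which was not called, had a log2 fold change of 2.86 ± 1.22 (adjusted p = 0.264). Lamb1 averaged 584 ± 160 CPM in fibroblasts and 105.6 ± 28.4 in mural cells. In cluster 7 against clusters 1 to 5, 6 genes of the list fell by edgeR (Col6a2, Col6a3, Lama2, Lamb1, Lamc1 and Nid1) and 0 rose. Lama5, a laminin chain, went the other way without a call by edgeR, with 186.5 ± 161.3 CPM in cluster 7 against 3.27 ± 4.27 (log2 fold change 5.81 ± 1.84, adjusted p = 0.104) and -4.85 ± 1.38 in fibroblasts against mural cells (adjusted p = 0.0727), and DESeq2 called it in both comparisons. Agrin (Agrn), which binds dystroglycan, was at 24.01 ± 12.5 CPM in fibroblasts and 56.2 ± 27.003 in mural cells, lower in 4 of 4 strains without overlap, and did not pass (log2 fold change -1.23 ± 0.53, adjusted p = 0.273). Cluster 8 against cluster 7 gave 2 higher genes, Lama2 (5.68 ± 0.81, adjusted p = 0.0212) and Col6a2 (5.43 ± 0.75, adjusted p = 0.0212). Lama2, the laminin chain of muscle basement membranes, was at 389 ± 145.4 CPM in cluster 8 and 7.22 ± 1.24 in cluster 7 of the same 3 strains. In cluster 8 against clusters 1 to 5, Col6a3, Hspg2 and Lamc1 fell and 0 rose, and in cluster 1 against clusters 2 to 5, Col4a1, Lamc1 and Nid1 fell and 0 rose. Under the block by strain Lamc1 lost its call in cluster 8 (adjusted p = 0.0567) and Lama4 gained one (0.0383). The block also added Lama4 in fibroblasts against mural cells (0.0447), Lamb1 among clusters 2 to 5 (0.0180), and Col6a1 in cluster 7 against clusters 1 to 5 and in cluster 8 against cluster 7.

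Other genes of the complex and its surroundings split. Of 10 measured of 13, 1 was higher and 2 were lower in fibroblasts than in mural cells, with a median of -1.02, and DESeq2 and the block each called 5. The share of all genes called by DESeq2 was larger than by edgeR in every comparison, as given in the last section. That of the block in this comparison is not given. Dysf, a membrane repair protein, was lower by a log2 fold change of -4.58 ± 0.94 (adjusted p = 0.0180), and Cav1, the main coat protein of caveolae, by -2.54 ± 0.60 (adjusted p = 0.0345). Bgn, the proteoglycan biglycan, was higher by 1.301 ± 0.26 (adjusted p = 0.0162), with 4156 ± 329 against 1682 ± 504 CPM. Cluster 7 against clusters 1 to 5 gave 1 higher (Cav1) and 2 lower (Bgn and Sntb2), and cluster 8 against clusters 1 to 5 gave 0 higher and 2 lower (Bgn and Sntg2, the latter with an adjusted p of 0.0509 with strain as a block). The 17 measured of 18 enzymes and factors for the sugar chain through which dystroglycan binds laminin had 0 calls by edgeR in any comparison, at most 1 of them with an unadjusted p under 0.05 in each, while DESeq2 called 1 in each of 3 comparisons, with a median of -0.16 in fibroblasts against mural cells beside -0.02 for all genes. In the comparisons not named here, edgeR called 0 genes of the complex and ligand lists, with an unadjusted p under 0.05 for 2 of 6 complex genes in cluster 8 against cluster 7, 1 of 9 in cluster 1 against clusters 2 to 5, and 1 of 11 complex and 8 of 14 ligand genes among clusters 2 to 5, where DESeq2 called 2 ligand genes.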

How the data were processed

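Single cells of mouse heart were sequenced by Smart-seq2. According to the labels and the methods of the study, reads were trimmed (Trim Galore), aligned to GRCm38 (TopHat2 with Bowtie) and counted per gene (featureCounts of Subread) by the authors. The deposited values are raw read counts, not normalized. The annotation release and strand setting are not given in the sources used here. The authors removed cells with low totals, many genes, high spike-in or mitochondrial reads, or endothelial or immune signatures, and clustered the rest. No doublet caller was run here. The 92 spike-in rows, 1.82% of counts, were left out of library sizes. All cell columns were matched to a sample.

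Counts were summed per strain and cluster (3 cells or more). Comparisons used the quasi-likelihood F test of edgeR 4.0.16 (R 4.3.3) with TMM factors, filterByExpr (minimum count 10) and Benjamini-Hochberg adjustment over all genes tested (threshold 0.05), after a test on simulated data. The standard error is the log2 fold change divided by the root of F. DESeq2 1.42.0, limma 3.58.1, RLE factors, no filter, strain as a block, larger sums, 1 plate and leaving out strains were alternatives, and leaving out C57BL6 cells of cluster 6 or Acta2GFP cells of cluster 8 was added after seeing the data. Strains were the replicates since the labels name no animal. Sums of 1 strain share its mice, sort and plate, which pairs them, and their deviations from group means correlated with r between 0.0513 and 0.176. Members and lists were chosen with earlier results of these data known. All members and their paralogs were to be named, with the 5 listed genes of largest called change per list in fibroblasts against mural cells and the 3 nearest patterns per member. Other called genes of the lists were named after their values were seen. Gene positions are from GENCODE M21 and promoters from RefSeq. The depth was 46268 to 1302397 counts per cell, and intervals cover counting error only. Results of some genes under this rule are not reported here.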

Additional observations from a re-analysis of the deposited data

Results flagged for a closer look

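In 10 of 63 groups of 4 strains, 1 strain lay far from the other 3, where chance gives about 5% of independent groups with normal values. These groups share cells (clusters 2 to 5 lie within clusters 1 to 5) and several rest on few reads, so the number is not read against that share. Dmd in cluster 1 was at 2.47 CPM in Cspg4dsRED (3 cells), against 52.4 to 61.6 in the others, and in clusters 2 to 5 it was at 94.2 CPM in Acta2GFP against 30.3 to 39.9. Sgcd stood high in Cspg4dsRED, at 17.6 CPM in clusters 1 to 5 (others 4.19 to 5.45), 19.1 in clusters 2 to 5 (5.28 to 5.90) and 8.76 in clusters 6 to 8 (0.0486 to 0.341). In cluster 1 the high strain for Sgcd was PdgfrbGFP, at 1.86 CPM against 0 to 0.283, all from 1 cell.

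In cluster 8, Acta2GFP had the high value of Dtna, 69.6 CPM against 0 to 0.750, and of Sspn, 141.3 CPM against 1.36 to 8.70, and in both genes over 90% of the reads came from 1 cell. Sntb1 in cluster 8 was at 29.999 CPM in Cspg4dsRED against 0.407 to 1.02. Sgca in cluster 1 was at 2.45 CPM in Acta2GFP against 0 to 0.248.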

How the results depend on the processing

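Of 440 log2 fold changes of members under alternatives, 394 kept direction and side of the threshold, 10 gained the call, 18 lost it and 18 changed sign. The share of tested genes that was called moved as follows. DESeq2 called 12.7% for fibroblasts against mural cells, 3.20% for cluster 8 against cluster 7, 5.22% for cluster 1 against clusters 2 to 5, 13.5% for cluster 7 and 13.8% for cluster 8 against clusters 1 to 5, and 2.77% among clusters 2 to 5. Limma called 9.22%, 0.379%, 2.36% and 8.14% in the first 4 of these and 0.511% among clusters 2 to 5. For cluster 8 against cluster 7, RLE factors gave 0.379%, no filter 0.855% of more genes, and sums of 10 cells or more 0 genes by edgeR (1514 at an unadjusted p under 0.05). No filter gave 0.284% among clusters 2 to 5, which were 77 genes against 50. Sums of 10 cells or more gave 0.748% for cluster 1. Leaving out 1 strain gave 2.66% (PdgfrbGFP) to 3.91% (Cspg4dsRED) for fibroblasts against mural cells, 0 (PdgfrbGFP) to 0.987% (Acta2GFP) for cluster 8 against cluster 7, 0.201% (Acta2GFP) to 0.748% (Cspg4dsRED) for cluster 1, 0.990% (Cspg4dsRED) to 5.86% (PdgfrbGFP) for cluster 7, 1.42% (C57BL6) to 8.47% (Acta2GFP) for cluster 8 against clusters 1 to 5, and 0 (PdgfrbGFP, 1162 at an unadjusted p under 0.05) to 0.133% (Cspg4dsRED) among clusters 2 to 5.

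With strain as a replicate block, the pairing of sums from 1 strain, 0.691% of genes were called for cluster 8 against cluster 7, 0.742% for cluster 1 and 3.94% for cluster 8 against clusters 1 to 5. Under the block Dmd lost its call in fibroblasts against mural cells (-1.996) and in cluster 8 (1.99), as did Sgcd in cluster 8 (-6.47), and Sgca (-0.21) and Dtna (-3.16) changed sign in cluster 8 against clusters 1 to 5. Dmd also lost its call in fibroblasts against mural cells without clusters 1 and 6 (-1.88) and without the C57BL6 cells of cluster 6 (-1.91), and without a filter in cluster 8 (1.98), as did Sgcd (-6.48). Sgca lost it in cluster 8 against cluster 7 with sums of 10 cells or more (-7.66). When 1 strain was left out, Dmd ran from -2.38 to -1.55 in fibroblasts against mural cells and from 1.62 to 2.31 in cluster 8, Sgcd from -6.90 to -6.14 in cluster 8, and Sgca from -9.71 to -7.66 in cluster 8 against cluster 7. Signs also changed without a call for Sgcb in fibroblasts against mural cells (-0.17 to 0.32 over strains left out), for Sgce (0.031), Sspn (0.082) and Dmd (0.12) in cluster 1 with sums of 10 cells or more, for Sspn there with 1 C57BL6 plate (0.053), and over strains left out for Sgce (-0.15 to 0.031), Sspn (-0.38 to 0.082) and Dmd (-0.45 to 0.27). In cluster 8 against clusters 1 to 5 they changed for Sgca without a filter (-0.019) and by limma (-0.22), for Dtna by limma (-1.83), and over strains left out for Dtna (-4.60 to 1.63), Sntb1 (-0.90 to 3.22) and Sgcb (-0.28 to 0.27). The causes were not tested. No plate value was possible in comparisons with cluster 7, which hold no C57BL6 sum.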
